A study of Mus musculus with 16 samples.

Results

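The cathepsins are the proteases of the lysosome, and 10 of them were followed here by name in the suprarenal aorta: Ctsa, Ctsb, Ctsc, Ctsd, Ctse, Ctsh, Ctsk, Ctsl, Ctss and Ctsz, which are 10 of the 29695 genes in the count table. Poly-A RNA was sequenced from the abdominal aorta above the renal arteries in 4 groups of 4 male mice. KO AngII mice were Vamp8-/- and were infused with angiotensin II (AngII, 1000 ng/kg/min) by subcutaneous osmotic minipump over 5 days, and KO saline mice were Vamp8-/- with saline pumps. WT AngII and WT saline mice were C57BL/6 wild-type animals given the same infusions. The knockout is labelled as a whole-animal genotype, the submitters excluded vessels that showed intramural hemorrhage or visible damage, and periaortic tissue was dissected away.

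Cathepsins are made as inactive precursors, carried to endosomes and lysosomes mainly by mannose 6-phosphate receptors, and activated there by acid and by other proteases. Most are cysteine proteases (Ctsb, Ctsc, Ctsh, Ctsk, Ctsl, Ctss and Ctsz), Ctsd and Ctse are aspartic proteases, and Ctsa is a serine carboxypeptidase. In arteries, cathepsins K, L and S are known for cutting elastin and collagen when smooth muscle cells and macrophages secrete them. Vamp8, the gene targeted in the KO mice, encodes a SNARE protein that takes part in fusing late endosomes, lysosomes and secretory vesicles.

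Total counts per library ran from 13284804 to 21643548, and all 10 cathepsins were among the 15984 genes that passed the filter on low counts. Levels are given as CPM after TMM scaling, which adjusts read counts for sequencing depth and for differences in library composition. Smooth muscle markers were abundant in every group, with Myh11 at 1507 to 3759 CPM in KO AngII, 1444 to 3373 CPM in KO saline, 1947 to 2909 CPM in WT AngII and 1993 to 5889 CPM in WT saline. Vamp8 itself was at 14.1 to 26.7 CPM in KO AngII and 24.9 to 53.3 CPM in KO saline, against 52.3 to 60.9 CPM in WT AngII and 45.9 to 57.2 CPM in WT saline. Every KO library thus kept Vamp8 reads, from 247 in KO AngII replicate 4 to 826 in KO saline replicate 1. The library labelled KO saline replicate 1 held the 53.3 CPM, a wild-type level that goes against its label, and it also had the highest brown adipocyte marker sum of all libraries (8719 CPM). KO AngII replicate 4 carried nerve and adrenal chromaffin markers (4568 CPM summed, against 292 CPM or less in every other library). Both stand apart, and values without them are given beside the fold changes of Ctsb, Ctsd and Ctsz, which they moved most, and beside the called ones. A symbol was missing in the table for 2725 genes, and all of these had 0 reads in all WT libraries. A difference in how KO and WT reads were counted therefore cannot be told apart from genotype.

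Per kilobase of exon, the lysosomal endopeptidases Ctsd and Ctsb were the most abundant, with means over all 16 libraries of 209 and 165 CPM per kb. Ctsz followed at 117, Ctsl at 54.9, Ctsk at 39.6, Ctsh at 29.9, Ctsa at 24.9, Ctss at 19.7, Ctsc at 10.6 and Ctse at 0.358 CPM per kb. Pooled over all 16 libraries, each gene overlapped in level with the next in this order, down to Ctsc. The lowest library of Ctsc (6.53 CPM per kb) was above the highest of Ctse (2.10). Within single groups some neighbours separated. Every Ctsz library was above every Ctsl library in each group (in WT AngII 115.8 or more against 87.8 or less). Every Ctsb library was above every Ctsz library in KO AngII and WT AngII. In WT AngII the order changed in the middle, where Ctsk reached 72.7 ± 32.8 CPM per kb beside Ctsl at 70.6 ± 17.0 (SD, n = 4), values that do not differ beyond their spread. In KO AngII, Ctsk stayed at 27.0 ± 6.06 CPM per kb and below Ctsl at 55.7 ± 5.88. Exon lengths come from another annotation release than the counts, and with the longest transcript in place of all exons Ctsh ranked 5 and Ctsk 6.

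**Figure D1:**
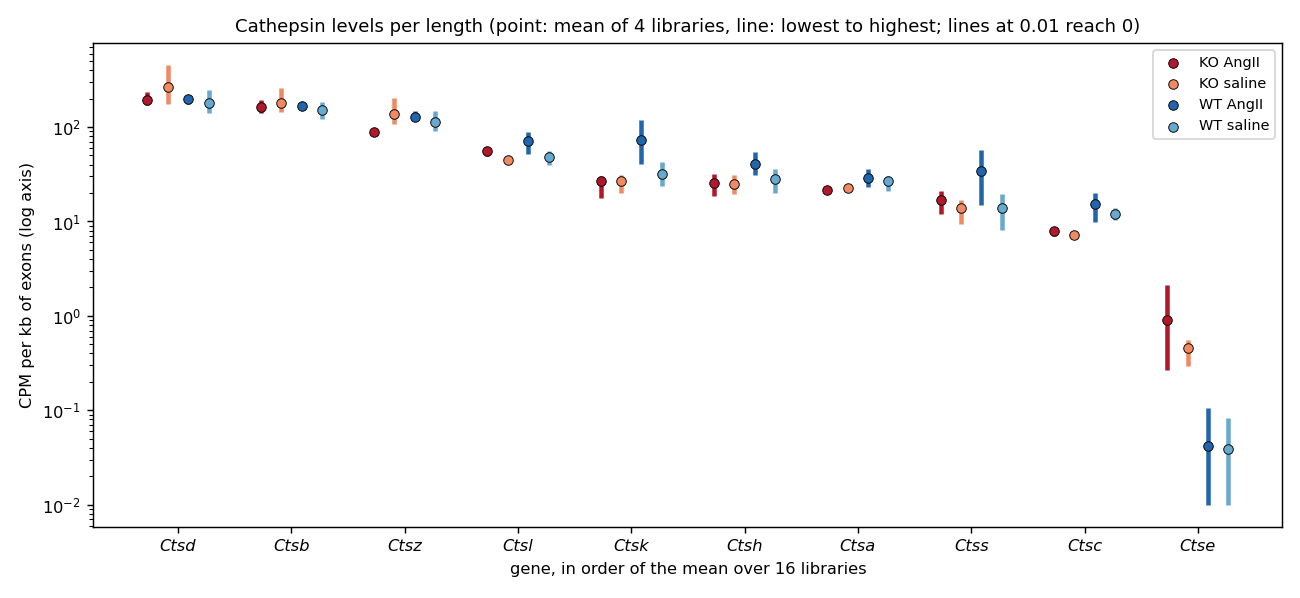
Each point is the mean CPM per kb of exon of a cathepsin in a group of 4 libraries, on a log axis, and the line runs from the lowest to the highest library. Ctsd, Ctsb and Ctsz lead in all 4 groups, Ctsk and Ctss stand highest in WT AngII, and Ctse reaches 2.10 CPM per kb only in KO AngII.

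Ctsk and Ctsc fell in KO AngII relative to WT AngII by edgeR's quasi-likelihood test at an adjusted p under 0.05 over all genes. They are 2 of the 9 cathepsins above 1 CPM in every library, and 2.03% of all genes tested were called (0.995% higher and 1.03% lower). All 9 had a negative log2 fold change, with a median of -0.52 against 0.04 for all genes. The remaining member, Ctse, was called higher in KO, but it entered the test only through the KO libraries, where it is high, so it is left out of these counts. After TMM scaling, Ctsa, Ctsc, Ctsk and Ctsz were lower in every KO AngII library than in any WT AngII library, a separation that 4.8% of all genes showed. Ctse was higher in every KO AngII library, as were 4.54% of genes, with the same limit that it entered the test through the KO libraries. Without the 2 libraries that stand apart, Ctsc (-0.98, adjusted p = 0.0413) and Ctse (4.42, adjusted p = 0.0291) still passed, and Ctsk did not (-1.47, adjusted p = 0.0518). None of the 3 passed when only the KO AngII and WT AngII libraries entered the fit (adjusted p = 0.137 for Ctsc, 0.0903 for Ctse and 0.108 for Ctsk).

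Under saline, Ctsc was again lower in KO, as 1 of the 9 cathepsins above 1 CPM in every library, where 3.01% of all genes were called (1.23% higher and 1.78% lower). The median of the 9 was -0.10, against 0.05 for all genes, and 4 of the 9 were positive. Ctse was again called higher, with the same reservation. Neither call held without the 2 libraries that stand apart (Ctsc -0.74, adjusted p = 0.0817, and Ctse 3.45, adjusted p = 0.0671), without the filter on low counts (adjusted p = 0.0532 for both), or with the replicate number as a block. Among all genes, 197 were higher and 284 lower in KO saline than in WT saline, and 185 were higher and 414 lower when mitochondrially encoded genes were left out of the scaling. These genes took 27.0 to 32.8% of counts in KO saline and 8.33 to 17.7% in WT saline, and their part in the result was not tested.

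AngII raised no cathepsin past the threshold in either genotype. In WT mice 0 of 10 were called by edgeR, where 0.444% of all genes were. All 9 cathepsins above 1 CPM in every library had a positive log2 fold change (median 0.35, against -0.01 for all genes, of which 47.8% were positive). Ctse was positive too (0.11, SE 0.99), but it rested on 8 reads per WT group and was -0.82 without WT AngII replicate 2. Ctsk, Ctsl, Ctss and Ctsh had an unadjusted p under 0.05, and 5.58% of all genes were higher at that level. DESeq2 called 1 cathepsin, Ctsk (adjusted p = 0.0108), where it called 222 of 15984 genes higher and 58 lower. Limma voom called 0 cathepsins, where it called 151 genes higher and 103 lower. In KO mice 0 of 10 were called by edgeR, where 0.0501% of all genes were. There Ctsz had an unadjusted p under 0.05 for a lower level, as 7.39% of all genes did. The KO count was also 0 with DESeq2, whose calls over 15984 genes were 483 upward and 251 downward. It was 0 with limma voom as well, beside 300 upward and 261 downward calls. With only 10 members, these counts of 0 do not set the cathepsins apart from other genes. The comparison of KO with WT under AngII and that of AngII with saline in WT share the WT AngII libraries, so their values are not independent.

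**Figure D2:**
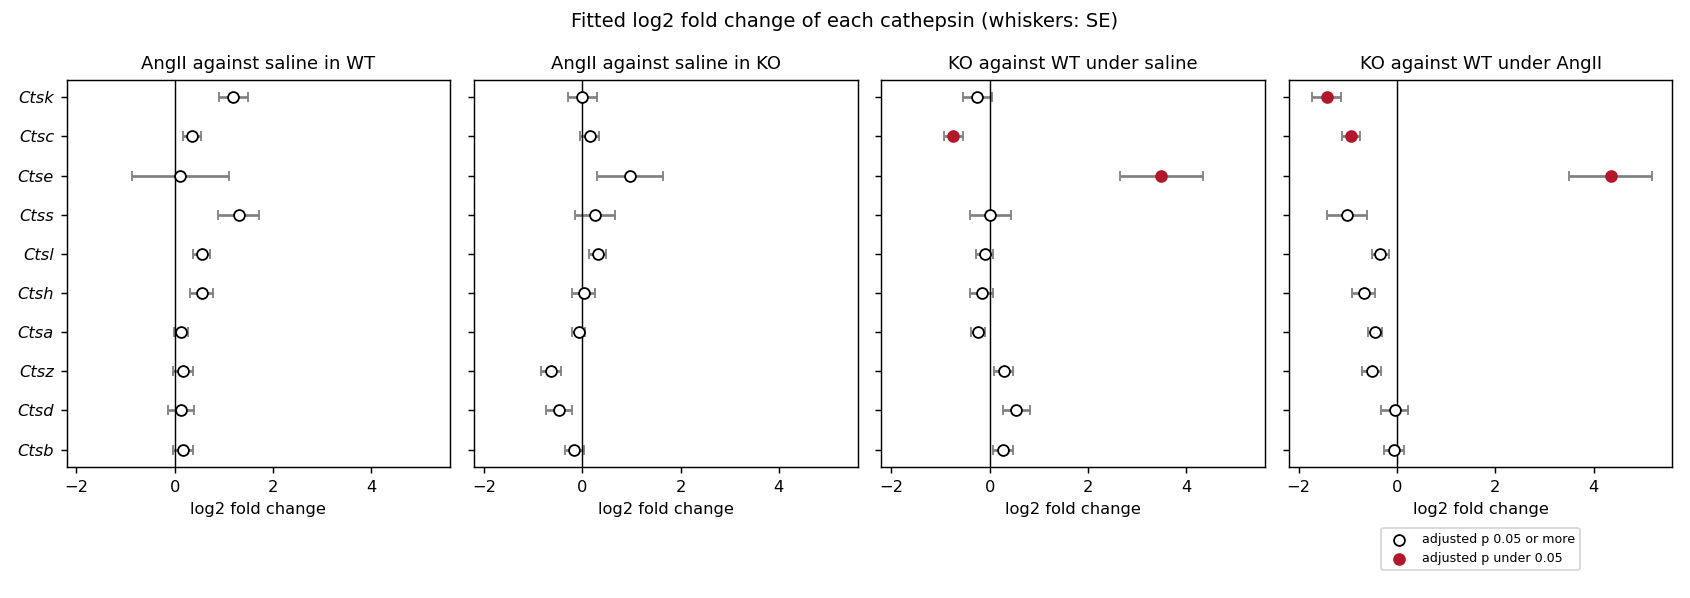
Each panel shows the fitted log2 fold change of the 10 cathepsins in a comparison, with the SE as whiskers, and filled points mark an adjusted p under 0.05. Ctsc and Ctse are filled in both KO against WT panels, Ctsk is filled under AngII only, and in WT mice Ctsk (1.19) and Ctss (1.30) lie farthest to the right.

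Ctsk, the collagen- and elastin-cleaving protease best known from osteoclasts, had 27.1, 46.1, 45.7 and 44.2 CPM in the 4 KO AngII libraries and 38.4, 46.9, 30.1 and 47.0 CPM in KO saline. It had 89.1, 61.2, 112 and 177 CPM in WT AngII and 64.2, 38.8, 35.7 and 54.2 CPM in WT saline. Every WT AngII library lay above every KO library, while both KO groups and WT saline overlapped and WT AngII replicate 2 lay within the WT saline range. The KO against WT difference under AngII was -1.43 (log2, SE 0.29, edgeR quasi-likelihood adjusted p = 0.0245, n = 4 per group), a level of 0.371 times that in WT. It was not called without WT AngII replicate 3, WT AngII replicate 4 or KO AngII replicate 2 (adjusted p up to 0.0889). AngII against saline gave 1.19 in WT (SE 0.29, edgeR quasi-likelihood adjusted p = 0.115), with 0.86 to 1.40 as each library was left out, and 0.01 in KO (adjusted p = 0.993). The difference between these, tested as an interaction, was -1.18 (SE 0.41, edgeR quasi-likelihood adjusted p = 0.406) and did not pass.

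Ctss, an elastolytic protease that stays active at neutral pH and trims the invariant chain of MHC class II molecules, had 18.3, 16.3, 27.9 and 28.8 CPM in KO AngII and 23.2, 21.6, 18.3 and 12.9 CPM in KO saline. It had 23.6, 20.2, 63.6 and 77.6 CPM in WT AngII and 10.98, 26.7, 13.4 and 24.1 CPM in WT saline. WT AngII replicates 3 and 4 were far above all other libraries, and replicates 1 and 2 were within the range of the other groups. AngII against saline in WT was 1.30 (SE 0.41, edgeR quasi-likelihood adjusted p = 0.289), and KO against WT under AngII was -1.02 (adjusted p = 0.194). The interaction was -1.03 (SE 0.58, edgeR quasi-likelihood adjusted p = 0.493).

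Ctsl, a broad lysosomal endopeptidase that also cleaves matrix proteins, had 337, 396, 392 and 321 CPM in KO AngII, 304, 297, 265 and 299 CPM in KO saline, 398, 335, 530 and 570 CPM in WT AngII and 329, 301, 260 and 362 CPM in WT saline. In KO mice every AngII library was above every saline library, a separation upward shown by 4.25% of genes, and in WT mice 1 AngII library lay within the saline range. The difference was 0.31 in KO (SE 0.17, edgeR quasi-likelihood adjusted p = 0.319) and 0.55 in WT (SE 0.17, adjusted p = 0.263). Averaged over both genotypes, AngII against saline gave 0.43 for Ctsl (SE 0.12, edgeR quasi-likelihood adjusted p = 0.108), the smallest p of the 10. With DESeq2 and limma voom 1 cathepsin, Ctsl, was called in that average, and with edgeR 0 were, where 1.04% of all genes were. Of all genes, DESeq2 called 463 higher and 203 lower in the average, and limma voom called 314 higher and 235 lower. Ctsk (0.60, SE 0.21, adjusted p = 0.189) and Ctss (0.78, SE 0.29, adjusted p = 0.223) came next.

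**Figure D3:**
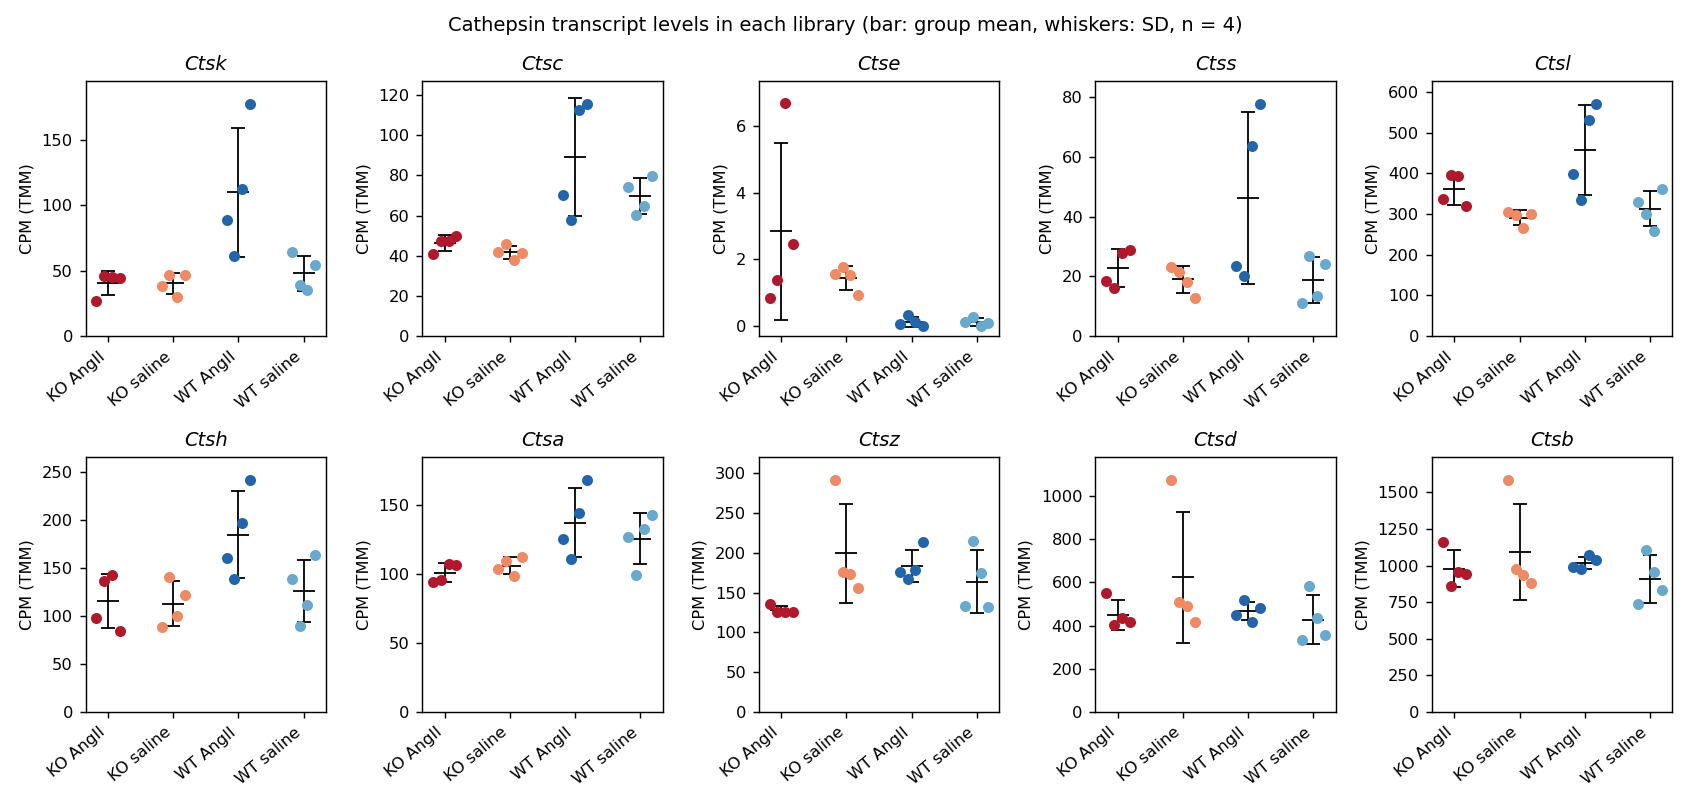
Each point is the TMM-scaled CPM of a cathepsin in a library, with the group mean as a bar and the SD as whiskers (n = 4). Ctsk and Ctsc are higher in every WT AngII library than in any KO library, Ctse is near 0 in both WT groups, and the library labelled KO saline replicate 1 stands alone for Ctsz, Ctsd and Ctsb.

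Ctsc, the dipeptidyl peptidase that activates the granule proteases of neutrophils, mast cells and cytotoxic lymphocytes, was lower in KO in both infusions. It had 40.9, 47.1, 47.6 and 49.7 CPM in KO AngII and 41.9, 45.8, 37.9 and 41.3 CPM in KO saline, against 70.2, 57.8, 112 and 115 CPM in WT AngII and 74.0, 60.4, 64.5 and 79.9 CPM in WT saline. All 8 KO libraries lay below all 8 WT libraries, as they did for 0.626% of all genes. Under AngII the difference was -0.94 (SE 0.19, edgeR quasi-likelihood adjusted p = 0.0207), a level of 0.521 times that in WT. Under saline it was -0.74 (SE 0.19, adjusted p = 0.0471), or 0.599 times. The call under AngII was lost without WT AngII replicate 3, WT AngII replicate 4 or KO AngII replicate 2 (adjusted p up to 0.0878), and that under saline held in 5 of 16 fits that left out a library (adjusted p 0.0242 to 0.144), with values of -0.80 to -0.67. AngII against saline gave 0.15 in KO (adjusted p = 0.666) and 0.35 in WT (adjusted p = 0.645).

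Ctse, an endosomal aspartic protease best known from stomach epithelium and antigen-presenting cells, was scarce throughout. It had 12, 28, 122 and 43 reads in KO AngII and 24, 23, 22 and 14 reads in KO saline, against 1, 5, 2 and 0 reads in WT AngII and 2, 4, 0 and 2 reads in WT saline. In CPM these are 0.84 to 6.67, 0.93 to 1.77, 0 to 0.33 and 0 to 0.26. Every KO library was above every WT library, as for 0.651% of all genes, and KO AngII replicate 3 alone held more than the other KO AngII libraries together. The log2 fold change of KO against WT was 4.35 under AngII (SE 0.84, edgeR quasi-likelihood adjusted p = 0.0161) and 3.49 under saline (SE 0.84, adjusted p = 0.0399). Ctse passed the low-count filter through the KO libraries, so its separation and its calls describe a gene selected by its KO level. Both fold changes rest on 8 reads per WT group, so the size of the fold is poorly fixed. Under AngII it was 3.46 without KO AngII replicate 3 and 5.26 without WT AngII replicate 2, and it was not called without WT AngII replicate 1, 3 or 4 (adjusted p up to 0.0781). Under saline it was 4.08 without WT saline replicate 2 and was called in 7 of 16 such fits (adjusted p 0.0232 to 0.137).

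Ctsd, the main lysosomal aspartic protease, had 552, 400, 434 and 415 CPM in KO AngII, 1074, 510, 492 and 416 CPM in KO saline, 451, 518, 416 and 482 CPM in WT AngII and 334, 582, 436 and 355 CPM in WT saline. The groups overlapped, and the library labelled KO saline replicate 1 was far above the rest. KO against WT under saline was 0.55 (SE 0.27, edgeR quasi-likelihood adjusted p = 0.244), and 0.11 without that library. AngII against saline in KO was -0.47 (SE 0.27, adjusted p = 0.342), and -0.03 without both libraries that stand apart.

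Ctsb, a cysteine protease that acts both as an endopeptidase and as a dipeptidyl carboxypeptidase, had 1160, 861, 957 and 940 CPM in KO AngII, 1585, 976, 935 and 878 CPM in KO saline, 991, 978, 1072 and 1035 CPM in WT AngII and 736, 1109, 959 and 830 CPM in WT saline. No comparison of Ctsb was called, and its log2 fold changes ran between -0.16 and 0.27 in the 4 group comparisons. Both ends rest on the libraries that stand apart. KO against WT under saline was 0.27, and 0.03 without both, and AngII against saline in KO was -0.16, and 0.09 without both. The 95% interval of KO against WT under AngII was -0.49 to 0.38.

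Ctsz, a carboxypeptidase that removes single residues, had 135.9, 125.9, 126.1 and 126.0 CPM in KO AngII, 292, 177, 173 and 156 CPM in KO saline, 175, 167, 179 and 214 CPM in WT AngII and 134, 215, 174 and 131 CPM in WT saline. After TMM scaling the KO AngII libraries were tightly grouped and lay below every KO saline library and every WT AngII library. Without TMM scaling KO AngII and KO saline overlapped, with KO AngII replicate 4 at 146.5 CPM and KO saline replicate 4 at 140.3 CPM. AngII against saline in KO was -0.63 (SE 0.20, edgeR quasi-likelihood adjusted p = 0.15), a separation downward that 3.52% of genes showed, and -0.38 without both libraries that stand apart. KO against WT under AngII was -0.52 (adjusted p = 0.17). The interaction was -0.80 (SE 0.28, edgeR quasi-likelihood adjusted p = 0.406), and -0.55 without both libraries (adjusted p = 0.402). No cathepsin passed that test, in which edgeR called 0.0188% of all genes and 2 of 10 cathepsins, Ctsk and Ctsz, had an unadjusted p under 0.05 with a negative value, as 4.61% of all genes did.

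Ctsh, an aminopeptidase, averaged 115 ± 28.3 CPM in KO AngII, 113 ± 23.2 CPM in KO saline, 185 ± 45.1 CPM in WT AngII and 126 ± 32.0 CPM in WT saline (SD, n = 4). Ctsa, the carboxypeptidase that also shields lysosomal beta-galactosidase and neuraminidase from breakdown, averaged 101 ± 6.70 CPM in KO AngII, 106 ± 6.14 CPM in KO saline, 137 ± 24.9 CPM in WT AngII and 125 ± 18.6 CPM in WT saline. The KO AngII libraries of Ctsa (94.4 to 107 CPM) were all below those of WT AngII (111 to 168 CPM), while the 2 groups of Ctsh overlapped. Without TMM scaling those of Ctsa overlapped too, with KO AngII replicate 4 at 123 CPM and WT AngII replicate 2 at 111 CPM. Neither Ctsa nor Ctsh was called by edgeR for KO against WT under AngII (Ctsa adjusted p = 0.0983, Ctsh adjusted p = 0.128). DESeq2 called Ctsa (adjusted p = 0.0321), where it called 718 of 15984 genes higher and 512 lower.

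The cathepsins varied together in blocks that cut across the groups and were picked out after the values were seen. Ctsa, Ctsc, Ctsh, Ctsk and Ctsl were correlated in all 10 pairs over the 16 libraries (Pearson r of log2 CPM 0.586 to 0.894), and so were Ctsb, Ctsd and Ctsz in all 3 pairs (0.751 to 0.930). Between the blocks r ran from -0.434 to 0.174. Ctss was placed in neither block, although its r was 0.782 with Ctsl, 0.682 with Ctsk and 0.623 with Ctsc. The adjusted permutation p of these was 0.00395, 0.0164 and 0.0252 for r, and 0.103, 0.422 and 0.197 for Spearman's rho. With Ctsh and Ctsa, Ctss had r = 0.529 and 0.511 (adjusted permutation p = 0.0781 and 0.089). Without the 2 libraries farthest from the median of the first gene of a pair, r ran from 0.0374 to 0.851 in the first block and from 0.488 to 0.761 in the second, and by Spearman's rho 8 of 10 and 3 of 3 pairs passed. After the group means were subtracted, r was 0.651 to 0.870 in the first block and 0.910 to 0.947 in the second. Of 45 pairs, 18 passed at an adjusted permutation p under 0.05 (100000 resamples), 16 of them positive and 2 negative. The resamples shuffled libraries across the 4 groups, so differences between groups enter these p. No p was computed after the group means were subtracted. The negative pairs were Ctse with Ctsa (r = -0.735, and -0.321 after that subtraction) and Ctse with Ctsc (-0.777 and -0.195). Ctse had 0 to 5 reads in each WT library and passed the low-count filter through the KO libraries. Its r over 16 libraries therefore follows the split of KO and WT, and these pairs add no result separate from it.

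Ctsb and Ctsd were the closest pair (r = 0.930, adjusted permutation p = 0.00045, and rho = 0.826, adjusted permutation p = 0.00345, n = 16 libraries), and r was 0.761 without the 2 libraries farthest from the median of Ctsb. Ctsh and Ctsk kept r = 0.851 in the same test (0.869 over 16, rho = 0.815, adjusted permutation p = 0.00045 for r and 0.00345 for rho). Ctsk and Ctss, which lie next to each other on chromosome 3, had r = 0.682 (adjusted permutation p = 0.0164, rho = 0.303, adjusted permutation p = 0.422), and r was 0.0222 without the 2 farthest libraries, so this relation rests on those libraries. Ctsa and Ctsl likewise went to 0.0374, against 0.586 over 16 (adjusted permutation p = 0.0432, rho = 0.309, adjusted permutation p = 0.419). The libraries share depth and tissue makeup, whose part in these correlations was not tested.

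**Figure D4:**
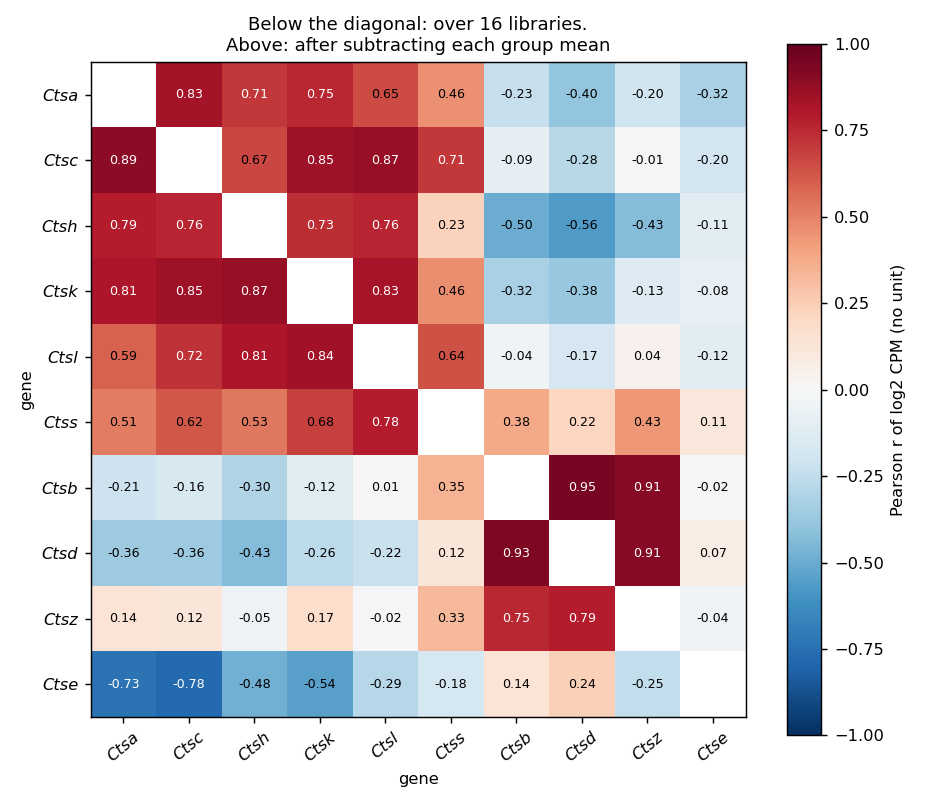
Each cell is the Pearson r of log2 CPM between a pair of cathepsins, over 16 libraries below the diagonal and after subtracting group means above it. The block of Ctsa, Ctsc, Ctsh, Ctsk and Ctsl and the block of Ctsb, Ctsd and Ctsz are red above and below it, and Ctse is negative against Ctsa and Ctsc below the diagonal.

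Across 14154 other genes with a mean log2 CPM above 0, the nearest patterns differed between members. Ctss was most like Spi1 (r = 0.936) and Ly86 (0.935), genes of myeloid cells, and Ctsk was most like the lysosomal glucuronidase Gusb (0.949) and the cyclophilin gene Ppic (0.942). Ctsc was most like Ncstn (0.951), a gamma-secretase subunit, and P3h1 (0.95), a collagen prolyl hydroxylase. Ctsd was most like the mitochondrial ribosome genes Mrps16 (0.977) and Mrpl20 (0.966), and Mrpl20 was also second for Ctsb (0.931), after Tmem126a (0.941). The nearest to Ctse were Ifi202b (0.909) and Gbp2b (0.899), to Ctsl Ptgs2 and S100a4 (0.938 each), to Ctsa Metrnl (0.942) and Naglu (0.931), to Ctsh Lpin3 (0.944) and Sulf1 (0.936), and to Ctsz Elof1 (0.933) and Pgap2 (0.921). These are descriptions over the same 16 libraries, with no test.

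Marker levels moved with several of these values. The summed level of 17 macrophage markers was 387 to 580 CPM in KO AngII, 445 to 536 CPM in KO saline, 496 to 1299 CPM in WT AngII and 441 to 799 CPM in WT saline. WT AngII replicates 3 and 4, the libraries highest in Ctss, Ctsk, Ctsl and Ctsc, had sums of 956 and 1299 CPM, against 668 and 496 CPM in replicates 1 and 2. None of the 17 was called by edgeR in any comparison, where 0.0188% to 3.01% of all genes were. In KO AngII against WT AngII, 15 of 17 had a negative log2 fold change, 10 with an unadjusted p under 0.05, as 7.64% of all genes had. The general macrophage markers were all detected, with Csf1r at 29.0 to 43.0 CPM in KO AngII and 39.5 to 120 CPM in WT AngII, and Adgre1 at 7.90 to 13.2 and 11.8 to 43.7 CPM in the same groups. The sum of 10 fibroblast markers was also highest in WT AngII replicate 4 (18001 CPM, against 5013 to 11363 CPM elsewhere). In whole tissue, fewer cells of a type and less RNA per cell cannot be told apart, and the part of these markers in the cathepsin differences was not tested.

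Ctsd and Ctsb were highest in libraries rich in brown adipocyte markers, except for Ctsb in WT AngII. The summed level of 7 such markers was 8719 CPM in the library labelled KO saline replicate 1, 5364 CPM in WT saline replicate 2 and 3620 CPM in KO AngII replicate 1. These were the libraries with the most Ctsd and the most Ctsb in their groups. In WT AngII the sum was highest in replicate 2 (3332 CPM), which had the most Ctsd of that group and the least Ctsb. The part of these markers in the levels was not tested.

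**Figure D5:**
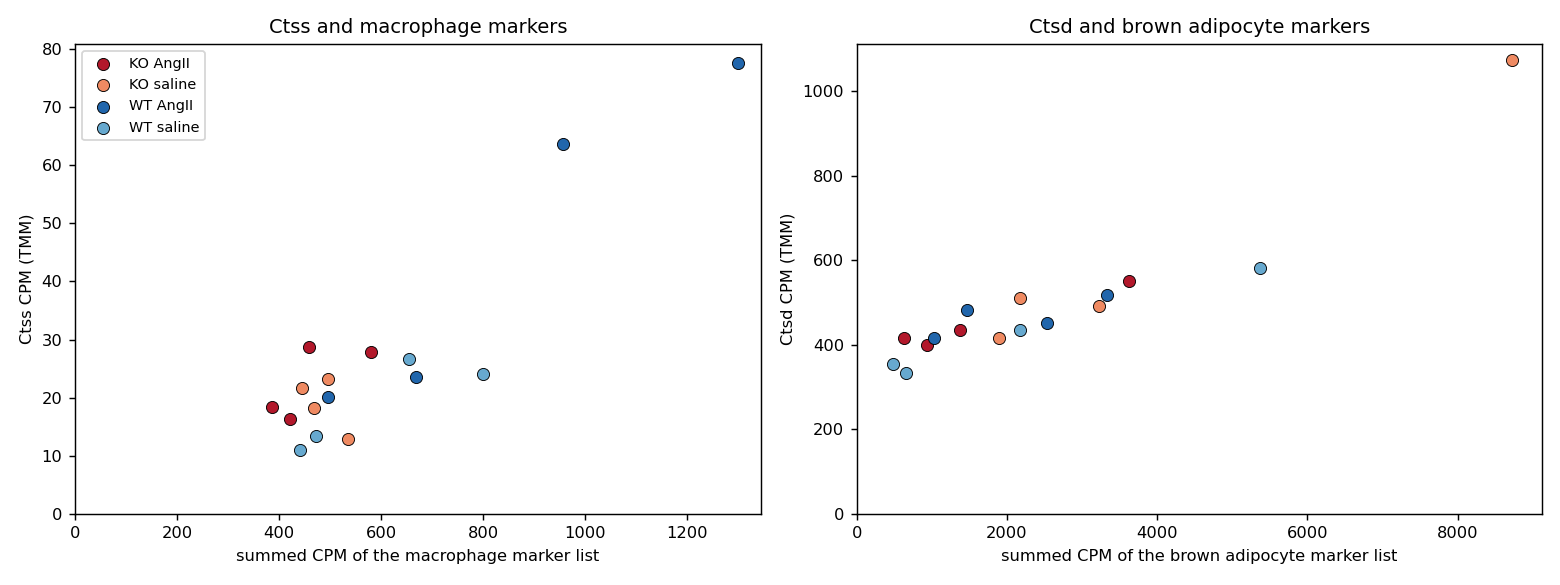
The left panel sets Ctss CPM against the summed CPM of 17 macrophage markers and the right panel sets Ctsd CPM against the summed CPM of 7 brown adipocyte markers, with a point for each of the 16 libraries. WT AngII replicates 3 and 4 (63.6 and 77.6 CPM of Ctss) lie apart at the upper right on the left, and the library labelled KO saline replicate 1 (1074 CPM of Ctsd) does so on the right.

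No gene of the lists that handle or regulate cathepsins passed the test, where 0.0188% to 3.01% of all genes did, depending on the contrast. At these shares a count of 0 does not set such short lists apart from other genes. None of 5 measured inhibitors was called by edgeR in any comparison. Cst3, the secreted cystatin that blocks cysteine cathepsins outside cells, was at 955 ± 151 CPM in KO AngII and 1434 ± 187 CPM in WT AngII (SD, n = 4; log2 fold change -0.59, edgeR quasi-likelihood adjusted p = 0.0723). None of 10 genes of sorting and activation was called, among them Lgmn, the asparaginyl endopeptidase that processes cathepsin precursors, at 165 ± 50.8 CPM in WT AngII and 107 ± 15.9 CPM in WT saline (0.63, edgeR quasi-likelihood adjusted p = 0.354). Of the 4 MiT/TFE genes, whose products switch on lysosomal genes, none was called. None was called either of 5 measured zymogens that cathepsin C activates, of 8 genes of the MHC class II pathway, of 4 osteoclast-type genes, or of the other cathepsins Ctsf, Ctso and Ctsw. Each count of 0 holds for all 6 contrasts by edgeR, the one tool run on these lists, at an adjusted p under 0.05. At an unadjusted p under 0.05 for KO against WT under AngII, 1 inhibitor, 2 sorting genes, 2 zymogens, 1 MHC class II gene and 1 other cathepsin were lower, and 2 sorting genes were higher, where 7.64% of all genes were lower and 10.3% higher.

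Among 20 measured other lysosomal proteins, 1 was lower in KO under saline and 2 under AngII, where 1.78% and 1.03% of all genes were. Npc1, the cholesterol exporter of lysosomes, was at 20.8 ± 4.80 CPM in KO saline and 35.4 ± 2.90 CPM in WT saline (SD, n = 4; -0.77, edgeR quasi-likelihood adjusted p = 0.0131). Under AngII, Hexa was at -0.65 (adjusted p = 0.0385) and Gusb at -0.71 (adjusted p = 0.0396), both by edgeR's quasi-likelihood test. The matrix genes whose products cathepsins K, L and S cut were lower in KO as well, 3 of 8 under saline and 5 of 8 under AngII, with none higher, beside the same shares of all genes. Eln, which encodes elastin, was the lowest under AngII by p (-2.41, edgeR quasi-likelihood adjusted p = 0.00614).

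Promoter sequence shows what stands upstream of members that differed and of members that did not. RefSeq start sites (GRCm38.p6) were matched for 7 of the 10 cathepsins, all but Ctsb, Ctse and Ctsh, and the 250 bases before the start are printed for Ctsk and Ctsc, which were lower in KO, for Ctss, the neighbour of Ctsk that did not pass, and for Ctsd, which varied in the other block. Capitals mark CACGTG, the core bound by MiT/TFE and other E-box factors, extended to GTCACGTG (either strand) where that is present, and the core of interferon response elements, a GAAA followed after any 2 bases by another GAAA (either strand).
Ctsk (chr3:95498960-95499209, plus strand): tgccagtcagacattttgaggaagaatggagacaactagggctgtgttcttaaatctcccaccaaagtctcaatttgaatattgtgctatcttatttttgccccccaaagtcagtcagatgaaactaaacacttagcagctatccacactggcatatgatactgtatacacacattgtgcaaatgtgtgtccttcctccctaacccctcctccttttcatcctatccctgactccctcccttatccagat
Ctsc (chr7:88277835-88278084, plus strand): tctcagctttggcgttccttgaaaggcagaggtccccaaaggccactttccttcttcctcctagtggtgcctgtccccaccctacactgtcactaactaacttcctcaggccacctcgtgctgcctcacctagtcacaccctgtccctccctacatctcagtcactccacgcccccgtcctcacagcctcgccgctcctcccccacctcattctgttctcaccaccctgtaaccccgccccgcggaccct
Ctss (chr3:95526536-95526785, plus strand): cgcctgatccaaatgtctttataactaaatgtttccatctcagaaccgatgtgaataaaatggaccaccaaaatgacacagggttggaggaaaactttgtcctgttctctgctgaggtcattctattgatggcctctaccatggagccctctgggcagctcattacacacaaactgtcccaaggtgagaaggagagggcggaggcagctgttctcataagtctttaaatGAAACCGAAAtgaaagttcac
Ctsd (chr7:142387828-142388077, minus strand): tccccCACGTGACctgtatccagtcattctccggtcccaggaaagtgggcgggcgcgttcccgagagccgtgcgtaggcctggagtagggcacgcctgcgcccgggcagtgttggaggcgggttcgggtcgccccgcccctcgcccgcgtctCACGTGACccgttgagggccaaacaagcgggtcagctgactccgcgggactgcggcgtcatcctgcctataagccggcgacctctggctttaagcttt
Ctsd held GTCACGTG at 2 places, starting 245 and 98 bases before the start, and 1 start of Ctsa also held it, while 1.85% of 32851 promoters did. CACGTG, which lies within it, was in Ctsa, Ctsd and Ctsl, and in 6.02% of promoters. The interferon element core was in Ctss, 21 bases before the start, and in 2.98% of promoters. Ctsk, Ctsc and Ctsz held none of the capitalised motifs in this window. A match is a description of letters and not evidence of binding.

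Exons of Ctsc, Ctse, Ctsh, Ctsk and Ctss overlap no exon of another gene in the GENCODE M21 annotation. Those of Ctsa, Ctsb, Ctsd, Ctsl and Ctsz do, by 10 to 1742 bases. The strand setting of the counting is unknown here, so reads in those stretches are uncertain. Ctsb shares 774 bases with Fdft1 on the other strand, a gene that rose in KO under AngII (log2 fold change 1.36, edgeR quasi-likelihood adjusted p = 0.0483).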

How the data were processed

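The deposited values were whole-number read counts per gene, not normalized, in 1 column per library, for poly-A RNA of 16 suprarenal aortae. The submitters' processing notes name the build GRCm39 (mm39), featureCounts 1.5.0-p3, HISAT2 2.0.5 and DESeq2 1.20.0. Annotation release, strand setting and the handling of multi-mapping reads were not given in the sources used here. Groups and replicate numbers came from the sample titles, and no paper was used. The labels call the libraries biological replicates.

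The default filter of edgeR kept 15984 genes and removed 13711, and counts were scaled by TMM. A single model with 4 group means over the 16 libraries (R 4.3.3, edgeR 4.0.16, 12 residual degrees of freedom, biological coefficient of variation 35.3%) gave each quasi-likelihood F test, and p-values were adjusted by Benjamini-Hochberg over all genes tested. All tests were two-sided, and a call is an adjusted p under 0.05. CPM were computed from counts and TMM-scaled library totals, and log2 CPM for correlations used a prior count of 2. The SE was obtained from the log2 fold change and its F statistic. The script was tested on simulated data. Total counts were 13284804 to 21643548 per library, and the counting precision of a gene depends on its own reads. Intervals are for the difference between group means, with an SE that reflects the spread between libraries. No pair of libraries agreed within sampling noise (smallest chi-square per degree of freedom 22.3).

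The members and all gene lists were chosen with earlier results of these data known. By rule, all 10 members are named, fold changes are printed per comparison for called members and, where fewer than 3 were called, for the members with the smallest p up to 3 in all, and the 2 genes most like each member by Pearson r are named. Fdft1 and the other genes near a cathepsin were named after their values were seen. Exon lengths and exon overlaps came from GENCODE M21 on GRCm38, and gene order came from RefSeq gene positions matched by symbol. The coordinates behind lengths, overlaps and gene order are not printed. Promoters came from RefSeq on GRCm38.p6. The settings compared were RLE scaling, scaling without mitochondrially encoded genes, no filter, a filter of 1 CPM in 4 libraries, DESeq2 1.42.0, limma 3.58.1 voom with quality weights, the replicate number as a block, only the groups compared, both libraries that stand apart left out, each library left out in turn, and the longest transcript as length.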

Additional observations from a re-analysis of the deposited data

Results flagged for a closer look

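In 6 of 40 groups of 4 values tested, a library lay far from the other 3 by Dixon's ratio, and chance alone flags about 1 in 20 independent groups. The groups are not independent, since the same libraries recur and Ctsb, Ctsd and Ctsz were correlated, so the count cannot be set against that rate. The library labelled KO saline replicate 1 was high in Ctsb (1585 CPM, against 878 to 976), Ctsd (1074 CPM, against 416 to 510) and Ctsz (292 CPM, against 156 to 177). Its TMM factor was 0.716, the lowest of all libraries. KO AngII replicate 1 was low in Ctsk (27.1 CPM, against 44.2 to 46.1) and high in Ctsz (136 CPM, against 126 in each of the others). KO saline replicate 3 was low in Ctsl (265 CPM, against 297 to 304).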

How the results depend on the processing

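None of the 18 fold changes that the naming rule selects turned its direction under any setting tried. In 400 comparisons of such a value with an alternative it kept its side of the threshold, in 39 it lost it and in 5 it gained it. The 400 include values called in neither fit, and only a called value could lose its call. Of 25 alternatives, the KO against WT call under saline held in 11 for Ctsc and 13 for Ctse. Under AngII it held in 21 for Ctsc, 21 for Ctse and 20 for Ctsk. Of all 60 fold changes (10 members, 6 contrasts), 13 turned under at least 1 setting, none of them called under any, among them Ctsk for AngII in KO (0.01, range -0.11 to 0.16) and Ctsb for AngII in KO (-0.16, range -0.25 to 0.09), KO against WT under saline (0.27, range -0.004 to 0.38) and KO against WT under AngII (-0.06, range -0.15 to 0.0005). With each library left out in turn, the cathepsins called numbered 0 to 4 for KO against WT under AngII (3 with all, Ctse included) and 0 to 2 under saline (2, Ctse included). They numbered 0 to 1 for AngII in WT (0) and 0 to 1 for the average (0). Ctse is in these counts although it entered the test only through the KO libraries. The count under AngII was 0 with only the groups compared, and that under saline was 0 with no filter, with the replicate block and with both libraries that stand apart left out. DESeq2 called 1 for AngII in WT and 1 for the average, as did limma voom for the average. Over all genes, calls for AngII in WT (71) were 280 by DESeq2, 254 by limma voom, 42 with the replicate block, 128 with both libraries left out and 3 to 115 with each left out. For AngII in KO (8) they were 734, 561, 14 with the block, 4 with only the groups compared and 6 to 32. For KO against WT under saline (481) they were 1362 by DESeq2, 3197 by limma voom, 203 with only the groups compared and 105 to 1744 with each left out, and under AngII (324) they were 1230, 580, 166 with the block, 102 with only the groups compared and 100 to 845. For the interaction (3) they were 104 by DESeq2, 173 by limma voom and 2 to 12, and for the average (166) 666, 549 and 42 to 252. Replicate numbers did not pair the libraries: of 24 same-number pairs, 8 correlated above 0.1 (r -0.423 to 0.442) and 7 correlated best with their own number. With the longest transcript, Ctsk ranked 6 and Ctsh 5. The causes were not tested. Ctse, with 8 reads in each WT group, is the member that depth limits most.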

Other observations

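Of the other 13 cathepsin genes looked for, Ctsf, Ctso and Ctsw passed the filter on low counts. Ctsf, a cysteine cathepsin, was at 46.4 ± 6.38 CPM in KO AngII, 52.9 ± 12.5 CPM in KO saline, 59.2 ± 7.45 CPM in WT AngII and 61.9 ± 5.22 CPM in WT saline (SD, n = 4). Ctso was at 36.7 ± 1.08 CPM in KO AngII, 41.3 ± 1.72 CPM in KO saline, 41.1 ± 4.53 CPM in WT AngII and 40.3 ± 3.71 CPM in WT saline. Neither was called by edgeR in any comparison, where 0.0188% to 3.01% of all genes were.

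Of 90 other genes that lie within 5 tested genes of a cathepsin in gene order, 2 were higher and 3 lower in KO under saline, and 1 was higher and 4 lower under AngII, where 3.01% and 2.03% of all genes were called by edgeR. Rab7b, which lies next to Ctse and encodes a Rab GTPase of late endosomes, fell in KO in both infusions (log2 fold change -1.71, edgeR quasi-likelihood adjusted p = 0.0345 under AngII, and -1.54, adjusted p = 0.04 under saline), while the value of Ctse was positive in both. Near Ctsc, Rps13-ps2 fell in both infusions (-4.55, edgeR quasi-likelihood adjusted p = 5.59e-05 under AngII, and -3.51, adjusted p = 0.000439 under saline), and as a ribosomal pseudogene its reads are uncertain. Folh1 (-2.31, adjusted p = 0.00562) and Fah (1.62, adjusted p = 0.0349) were called by edgeR under saline and not under AngII (adjusted p = 0.105 and 0.103). The others were Plscr2 near Ctsh under saline (1.14, edgeR adjusted p = 0.0471), and under AngII Prxl2c (-1.12, adjusted p = 0.00277) and 1810034E14Rik (-1.82, adjusted p = 0.0327) near Ctsl and Fdft1 near Ctsb (1.36, adjusted p = 0.0483). These genes were singled out after their values were seen.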
